A study of Mus musculus with 6 samples.

Results

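Ganglionic eminence progenitors were taken as the cells that the deposited cell annotation assigns to the subtype Ganglionic. They numbered 682 of 18393 cells in the table, or of 17280 once the cells marked as doublets were set aside, and they made up part of 4139 cells in 5 neuron subtypes. The other neurons were mainly 2160 excitatory neurons and 1109 interneurons, the latter being the closest relatives and the main point of comparison. All 6 mice contributed, with 119, 77 and 61 ganglionic cells in WT 1, 2 and 3 and 118, 206 and 101 in Fmr1-KO 1, 2 and 3. Where 3 values follow each other for a genotype, they stand in this order.

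The study profiled single cells of the mouse cortex at postnatal day 5 by InDrop, a droplet method in which each cell's RNA is tagged on a barcoded hydrogel bead and counted by unique molecular identifiers (UMIs). Control mice were FVB.129P2-Pde6b+ Tyrc-ch/AntJ and mutants were FVB.129P2-Pde6b+ Tyrc-ch Fmr1tm1Cgr/J, so that all mice shared the FVB.129P2 background with its Pde6b and Tyr alleles and differed in the disrupted Fmr1 gene. Each genotype had 3 mice, both sexes were used, and the labels name no treatment. WT 1, Fmr1-KO 1 and Fmr1-KO 2 were run on bead version 2, and WT 2, WT 3 and Fmr1-KO 3 on version 3.8. The mutation is constitutive and present in every cell, so a difference in one cell type may follow from any tissue. In sums over the cells of a type, fewer UMIs from a gene in each cell and fewer cells with that gene cannot be told apart.

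The ganglionic eminences are proliferative zones of the ventral telencephalon that give rise to the GABAergic neurons of the forebrain. Their progenitors express the homeobox genes Gsx2 and Dlx1/2, divide in the ventricular and subventricular zones, and hand over to migrating neuroblasts that switch on neuronal cytoskeletal genes before they reach the cortex or olfactory bulb. The medial eminence is marked by Nkx2-1 and Lhx6, the lateral and caudal ones by factors such as Gsx2, Meis2, Sp8 and Nr2f2. Around birth the remaining progenitors lie next to the lateral ventricle.

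The ganglionic cells of a mouse held between 243006 and 708105 UMIs in all, with medians of 2353 to 4366 UMIs per cell against 1697 to 3023 in interneurons. Levels are given as counts per 1000000 UMIs (CPM) of the cells summed within a mouse. Some cell barcodes recurred between libraries of the same mouse: 216 of 682 ganglionic cells (31.7%) shared theirs, against 24.8% of all cells, and 93.3% of 3307 such pairs had the same subtype, compared with 16.7% of 468 pairs between mice. Among the ganglionic cells of a mouse, the part sharing a barcode ran from 11.9% in Fmr1-KO 1 to 53.4% in Fmr1-KO 2. Keeping each barcode once per mouse left 557 ganglionic cells, and the main genotype comparisons were repeated on them. One mouse stood apart in Y-linked genes. Ddx3y was read at 96.3, 177 and 107 CPM in WT and 82.7, 9.89 and 117 CPM in Fmr1-KO in the ganglionic cells, and Eif2s3y, Kdm5d and Uty were at 0 in Fmr1-KO 2 and above 0 in the other 5 mice.

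Genes of cell division set these cells apart. Since the subtype was drawn from the expression of the same cells, these levels are a description and carry no test. Top2a, the topoisomerase that untangles replicated chromosomes, stood at 1135 to 1617 CPM over the 6 mice in ganglionic cells and at 6.38 to 27.3 CPM in interneurons. Mki67, the antigen of cycling cells, stood at 819 to 1015 CPM against 4.25 to 49.7 CPM. The ranges of both genes lay far apart, and 73.3% of ganglionic cells had a UMI of Top2a compared with 3.25% of interneurons. The chromatin protein gene Hmgb2 averaged 2717 ± 527 CPM (SD, n = 6 mice) against 119.9 ± 53.0, and the mitotic ubiquitin ligase partner Ube2c averaged 873 ± 91.6 against 50.2 ± 27.2. Summed over the 52 G2/M genes, the level was 19083 ± 2314 CPM in ganglionic cells, 4975 ± 995 in the larger cluster of oligodendrocyte precursors, 759.8 ± 202 in interneurons and 817 ± 559.8 in excitatory neurons.

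Promoters of 4 of these mitotic genes are shown because CCAAT boxes and the cell cycle homology element are the letters through which such genes are known to be timed. Each is the 250 bases before the RefSeq start site on build GRCm38.p6, read 5′ to 3′ on the gene's minus strand, with CCAAT (or ATTGG) and TTTGAA or TTTAAA (or TTCAAA) in capitals. The matches do not overlap one another. They lie at chr11:99024190-99024439 (Top2a), chr7:135716380-135716629 (Mki67), chr10:69352913-69353162 (Cdk1) and chr13:100786487-100786736 (Ccnb1).
Top2a: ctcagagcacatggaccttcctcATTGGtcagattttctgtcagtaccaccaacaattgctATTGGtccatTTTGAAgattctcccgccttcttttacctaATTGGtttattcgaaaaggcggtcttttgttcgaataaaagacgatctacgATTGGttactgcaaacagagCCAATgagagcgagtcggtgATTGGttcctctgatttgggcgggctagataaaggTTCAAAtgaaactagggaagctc
Mki67: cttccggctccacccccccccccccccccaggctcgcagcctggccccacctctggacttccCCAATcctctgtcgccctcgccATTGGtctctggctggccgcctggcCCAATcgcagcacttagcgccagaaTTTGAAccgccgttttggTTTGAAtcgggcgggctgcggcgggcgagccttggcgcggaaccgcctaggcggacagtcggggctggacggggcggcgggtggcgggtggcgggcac
Cdk1: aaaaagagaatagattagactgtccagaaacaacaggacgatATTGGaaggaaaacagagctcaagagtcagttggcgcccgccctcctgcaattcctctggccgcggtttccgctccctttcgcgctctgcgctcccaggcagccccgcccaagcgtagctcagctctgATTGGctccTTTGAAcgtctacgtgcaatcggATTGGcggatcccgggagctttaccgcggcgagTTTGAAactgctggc
Ccnb1: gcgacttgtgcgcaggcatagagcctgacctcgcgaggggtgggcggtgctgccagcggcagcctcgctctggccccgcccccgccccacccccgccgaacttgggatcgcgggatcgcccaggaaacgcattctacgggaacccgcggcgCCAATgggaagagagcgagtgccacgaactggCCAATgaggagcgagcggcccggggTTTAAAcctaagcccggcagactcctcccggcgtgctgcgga
On both strands, the Top2a window held 6 matches of the first motif and 2 of the second, those of Mki67 and Cdk1 held 3 and 2 each, and that of Ccnb1 held 2 and 1. RefSeq promoters were matched for 43 of the 52 G2/M genes, giving 47 windows. CCAAT was present in 83.0% of them, in 56.4% of 39 windows of S phase genes and in 33.8% of all 32851 windows. The second motif was present in 51.1%, 23.1% and 25.2%, and both together in 46.8%, 12.8% and 8.78%. Among the 4011 windows of genes detected in 15% or more of ganglionic cells, the 3 shares were 36.8%, 17.6% and 7.03%. The homeodomain core TAATTA was in neither the Dlx1 nor the Dlx2 window, and in 4.84% of all windows, which says only that these letters are not in those 250 bases.

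Replication genes were also higher than in interneurons. Pcna, the sliding clamp of DNA polymerase, averaged 1116 ± 205 CPM against 225 ± 51.0 in interneurons, a ratio of 4.95. The ribonucleotide reductase subunits Rrm1 and Rrm2 averaged 548 ± 40.5 and 569 ± 155 CPM, against 69.9 ± 30.1 and 43.4 ± 27.6. Each of these 3 genes was higher in ganglionic cells in 6 of 6 mice. After every cell was thinned to 700 UMIs, a UMI of a G2/M gene was found in 95.8 ± 3.61% of ganglionic cells (mean ± SD over mice, 1 shallower cell left out), 35.3 ± 7.13% of interneurons and 33.6 ± 12% of excitatory neurons, the last being neurons that no longer divide. The ganglionic share was above both in every mouse. For S phase genes the thinned shares were 95.8 ± 1.92%, 53.8 ± 2.69% and 36.6 ± 3.02%, with interneurons above excitatory neurons in 6 of 6 mice. Where the UMIs in excitatory neurons came from was not tested. Without thinning the G2/M shares were 99.5 ± 0.588%, 68.3 ± 9.26% and 63.8 ± 7.41%. With each ganglionic barcode kept once the thinned share was 95.4 ± 4.11%. For at least 2 G2/M UMIs after thinning the 3 shares were 91.4 ± 4.30%, 10.9 ± 3.84% and 12.3 ± 6.64%, so the distance between ganglionic cells and the other neurons widened. The deposited phase calls placed 55.7 to 70.4% of a mouse's ganglionic cells in G2/M, 6.93 to 14.8% in S and the rest in G1. Among interneurons, 91.5 to 98.2% were in G1, and 3.25 to 14.9% of excitatory neurons were called G2/M.

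Regulators of the cycle were mixed. Ccnd2, the D-type cyclin of forebrain intermediate progenitors, was at 2987 to 6748 CPM in ganglionic cells and 1539 to 4311 CPM in interneurons, and was higher in ganglionic cells in 6 of 6 mice by a ratio of the means of 1.75. Its kinase partner Cdk4 averaged 817 ± 78.3 CPM against 395 ± 55.3. The antiproliferative genes Btg1 and Btg2 went in opposite directions. Btg1 was lower in ganglionic cells in 6 of 6 mice (367 ± 42.8 against 888 ± 184 CPM) and Btg2 was higher in 6 of 6 (338 ± 118 against 45.7 ± 9.89 CPM). The cell cycle inhibitor Cdkn1b averaged 299 ± 95.1 against 227 ± 76.7 CPM.

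Among genes at 50 CPM or more in ganglionic cells, the 20 with the highest ratio to the next subtype were led by Psrc1, a spindle microtubule protein (123.5 ± 34.2 CPM, 7.33 times the next subtype). It was followed by Mxd3, a MAX-binding repressor (5.68 times), and Sgol1, the guardian of centromere cohesion (4.47 times). The remaining 17 ranged down to 3.65 times and held replication genes (Cdc45, Rrm2, Dut, Esco2, 2810417H13Rik), the mitotic inhibitor Fbxo5, and genes of the spindle, kinetochore, centromere and cytokinesis (Ect2, Spc25, Fam83d, Kif4, Sgol2, Tpx2, Kifc1, Cks2, Pbk, Fam64a, Top2a). The next subtype was oligodendrocyte precursors for 11 of the 20 and microglia for 7. No gene of neuronal identity was among them.

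**Figure D1:**
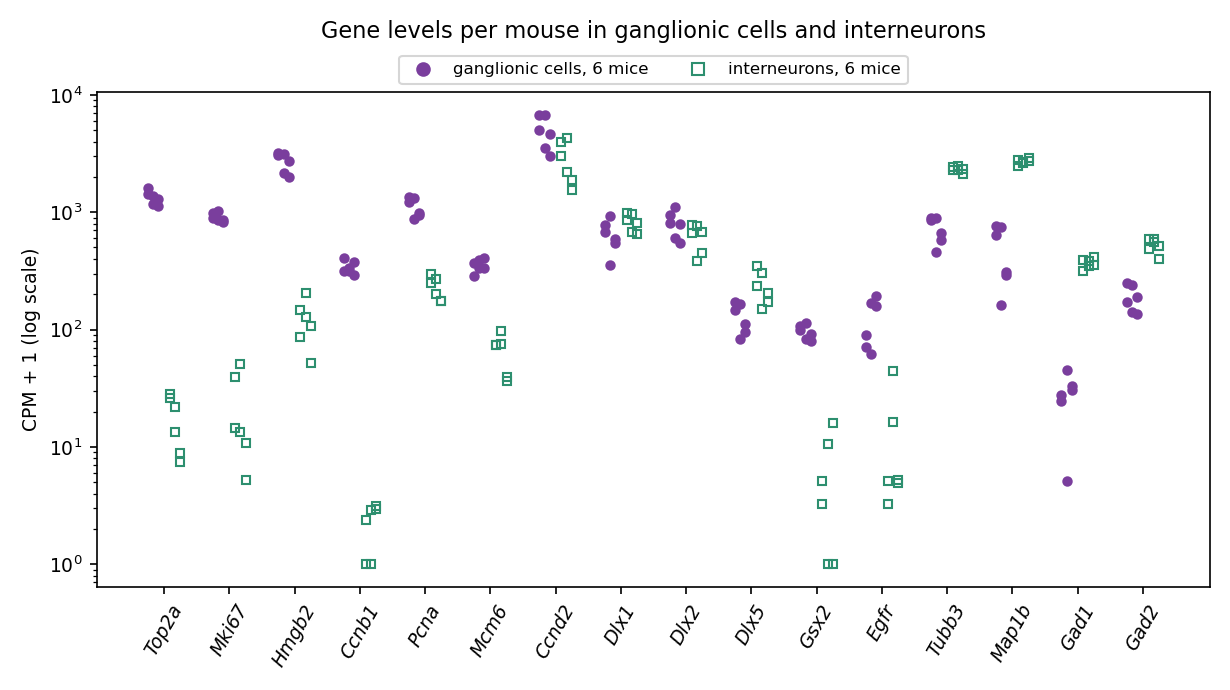
Levels of 16 genes in CPM + 1 on a log axis, 1 point per mouse, filled circles for ganglionic cells and open squares for interneurons. Division genes such as Top2a (1135 to 1617 against 6.38 to 27.3 CPM) lie apart, the Dlx genes lie close together, and Tubb3, Map1b, Gad1 and Gad2 lie lower in ganglionic cells.

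The ganglionic cells shared the homeobox programme of the interneurons and lacked much of their maturity. Dlx2, which specifies the GABAergic lineage, was at 544 to 1110.0 CPM against 379 to 769 CPM in interneurons, higher in 5 of 6 mice by a ratio of the means of 1.30. Dlx1, Dlx5 and Sp9 were lower than in interneurons in 6 of 6 mice, at 647 ± 197, 128 ± 37.2 and 224 ± 76.6 CPM against 824 ± 142, 235 ± 76.6 and 395 ± 78.9. Gsx2 ran the other way. This selector of lateral progenitors stood at 94.5 ± 13.1 CPM against 5.13 ± 5.94 and was higher in 6 of 6 mice. The SOX factors Sox11 and Sox4 averaged 3576 ± 378 and 1062 ± 158 CPM, against 4273 ± 222 and 1737 ± 326, and Insm1, a factor of neurogenic divisions, averaged 713 ± 85.4 against 160.3 ± 20.2.

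Genes of the lateral eminence were present and the defining factors of the medial one were close to absent. In 15% or more of ganglionic cells, 8 of 17 listed lateral genes and 4 of 12 caudal genes were detected. Of 13 listed medial genes 3 were, Etv5 included. Meis2, Pax6 and Tshz1, transcription factors of lateral progenitors and olfactory neuroblasts, averaged 499 ± 91.1, 333 ± 58.6 and 187 ± 15.1 CPM, of which Pax6 was higher than in interneurons in 6 of 6 mice and the other 2 lower. Among caudal genes, Nr2f1 averaged 501 ± 148 CPM and Sp8 124 ± 48.0 CPM. In contrast, Nkx2-1, Lhx6 and Lhx8, the defining factors of the medial eminence, were read with 6, 2 and 2 UMIs in all 682 cells and were at 0 in all 3 WT mice. Lhx6 stood at 12.3 to 193 CPM in interneurons. Dlx2, Top2a, Mki67 and Ccnd2, the genes that mark the subtype, were all well above 0 in every mouse. Of the regional factors given with levels here, those that came with them were lateral and caudal ones.

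Neuronal differentiation was under way but incomplete. Of the neuroblast genes, the tubulin regulator Stmn1 was at 3665 ± 675 CPM against 4208 ± 427, and the chromatin-binding factor Nfib at 3017 ± 182 against 4066 ± 226, both lower in 6 of 6 mice. Nfix was at 1676 ± 234 against 1579.6 ± 319. The GABA synthesis gene Gad2 reached 186 ± 48.1 CPM against 522 ± 72.4 and Gad1 26.6 ± 13 against 367 ± 35.4. The 16 subclass genes of mature interneurons, such as Sst and Npy, summed to 45.7 ± 40.0 CPM against 655 ± 286, and 64 synaptic genes to 3549.6 ± 293 against 11656 ± 1839.8.

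Of 2746 genes at 100 CPM or more in either subtype, 892 were higher in ganglionic cells than in interneurons in 6 of 6 mice and 821 were lower. The 12 with the highest ratios were mitotic genes: the kinase gene Nek2 stood at 155 ± 36.3 CPM and was at 0 in the interneurons of 5 mice, Ccnb1, the mitotic cyclin, at 338 ± 42.2 against 1.23 ± 0.984 CPM, and Aspm, the microcephaly spindle gene, at 324 ± 39.3 against 1.64 ± 1.60. At the other end were genes of the postmitotic neuron. Maf, a factor of medial eminence interneurons, stood at 211 ± 124 CPM in interneurons and 2.42 ± 2.59 in ganglionic cells. The glutamate receptor Gria1 stood at 284 ± 87.4 against 7.12 ± 4.67 CPM and the vesicle calcium sensor Syt1 at 462 ± 225 against 16.3 ± 18.1. Cnr1, the cannabinoid receptor, Rbfox1, a splicing factor, Kcnip1, Vstm2l, Runx1t1, Tmem130, Thsd7a, Dnm3 and Prokr2 completed the 12, with ratios down to 23.1.

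Progenitor genes were broadly high. The nucleosome-binding protein genes Hmgn2 and Hmgb1 averaged 4391 ± 329.7 and 2861 ± 563 CPM against 1439.5 ± 152 and 932 ± 197 in interneurons, and the histone variant H2afz averaged 2765 ± 135 against 527 ± 53.3. In the Notch pathway, which holds neighbouring progenitors undifferentiated, the target Hes5 stood at 264 ± 82.8 against 19.9 ± 7.36 CPM, the receptor Notch1 at 264 ± 40.6 against 48.3 ± 14.3, the ligand Dll1 at 162 ± 63.0 against 19.6 ± 7.37 and Hes6, an antagonist of Hes1, at 418 ± 136 against 96.1 ± 30.4. All 7 of these genes were higher in ganglionic cells in 6 of 6 mice. Radial glial genes were present at intermediate levels, with Fabp7 at 1054 ± 191 CPM and Slc1a3 at 641 ± 145 against 299.6 ± 74.1 and 91.8 ± 32.8. The 20 genes of that list summed to 4413 ± 508 CPM, against 74615 ± 4883 in the larger astrocyte cluster.

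Markers of other cell types were low. The 10 microglial, 11 vascular and 6 ependymal markers summed to 22.1 ± 13.9, 28.8 ± 15.8 and 13.6 ± 6.69 CPM, and C1qc, Dcn and Tmem212 were at 0. Of the 15 excitatory markers, 7 were under 10 CPM, and Slc17a7, the cortical vesicular glutamate transporter, had 5 UMIs in all. Eomes, of dorsal intermediate progenitors, had 129 UMIs, in 5.72% of the cells. The 10 oligodendrocyte markers summed to 1021 ± 389 CPM against 10760.0 ± 838 in oligodendrocyte precursors, most of it from Olig1 (177 to 797 CPM) and Olig2 (211 to 514 CPM), factors that ventral progenitors also use, while Sox10 stayed at 3.97 to 8.96 CPM. Mag, of myelin, was at 0. The part of such markers in the genotype comparisons was not tested.

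The subtype was not uniform. It drew on 3 of the deposited neuron clusters: cluster 4 with 434 cells, cluster 8 with 116 and cluster 15 with 132, at medians of 3883, 4538 and 1418 UMIs per cell. The clusters were made from the same expression values, so the following is a description. The epidermal growth factor receptor gene Egfr, carried by transit-amplifying progenitors, was read at 146, 16.1 and 4.70 CPM in clusters 4, 8 and 15. Hes5, Olig2 and Fabp7 were likewise high in cluster 4 (347, 415 and 1348 CPM) and low in cluster 8 (19.7, 10.8 and 265 CPM). All 4 genes were higher in cluster 4 than in the other 2 clusters together in 6 of 6 mice.

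Clusters 8 and 15 carried the neuroblast genes while still dividing. Sp8 went from 34.5 CPM in cluster 4 to 376 and 358 CPM in clusters 8 and 15, Dlx5 from 49.0 to 364 and 301, and the neuronal tubulin Tubb3 from 391 to 1850.1 and 1270.1. The same clusters had more, not less, of the mitotic genes. Ube2c was at 574, 1567 and 1430.0 CPM and Top2a at 1233, 1760.5 and 1543 CPM in clusters 4, 8 and 15. Replication genes went the other way, with Pcna at 1419, 586 and 626 CPM and the helicase subunit Mcm6 at 441, 104 and 155 CPM. Phase calls followed this split: 53.7% of cluster 4 was called G2/M and 34.1% G1, compared with 88.8% and 4.31% in cluster 8. Cdkn1b was at 217, 584 and 559.8 CPM, so the inhibitor and the mitotic genes were higher in the same clusters.

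**Figure D2:**
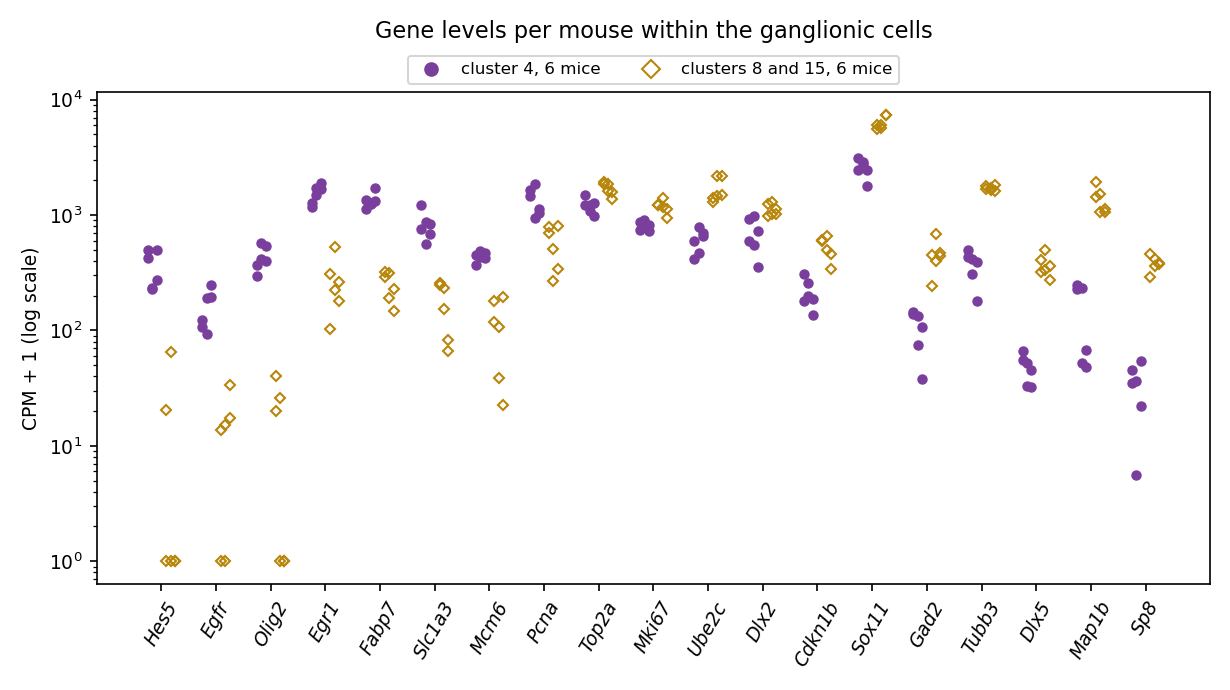
Levels of 19 genes in CPM + 1 on a log axis, 1 point per mouse, filled circles for cluster 4 and open diamonds for clusters 8 and 15 together. From left to right the genes pass from those higher in cluster 4, such as Hes5 (347 CPM over all its cells), to those lower there, such as Sp8 (34.5 CPM).

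The immediate-early and stress genes also divided the clusters. Egr1, an activity-induced factor, was at 1515, 147 and 437 CPM in clusters 4, 8 and 15 and Fos at 812, 89.6 and 249 CPM, each higher in cluster 4 in 6 of 6 mice, while the chaperone genes Hsp90aa1 and Hspa8 were at 1532, 1183 and 1308 CPM and 876, 592 and 536 CPM, which is a smaller difference. Against interneurons, Egr1 was at 1204 ± 324 CPM compared with 160.4 ± 32.7. These genes are also induced by tissue dissociation, whose part was not tested.

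Within each mouse, the cells were then ranked by the share of their UMIs that came from the 97 S phase and G2/M genes and split into 3 equal groups, whose medians were 1.63, 2.78 and 3.87% of UMIs. Of 2390 genes outside the lists at 100 CPM or more, 219 were higher in the top group than in the bottom group in 6 of 6 mice and 240 were lower. The highest ratios were those of Ccnf, a cyclin of a ubiquitin ligase (151 ± 46.7 against 10.8 ± 13.2 CPM), the spindle genes Troap and Kif18a, and the tubulin Tuba1c (355 ± 39.0 against 36.5 ± 15.6 CPM). Fam83d, Depdc1b and G2e3 were also among the 8. The genes lower in the top group were of another kind. Cdt1, which licenses replication origins in G1, stood at 46.4 ± 28.4 in the top and 194 ± 59.3 CPM in the bottom group, and E2f1, the G1/S activator, at 52.5 ± 12.9 and 173 ± 53.0. The intermediate filament Nes, Notch ligand Dll3, Btg2, Anks1, Tsc22d4 and the reelin receptor Lrp8 completed this set.

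The lineage genes moved less along this ranking. Ccnd2 was at 5311 ± 1771 CPM in the top and 4919 ± 1696 in the bottom group and was higher at the top in 4 of 6 mice, and Dlx2 was at 973 ± 302 and 678 ± 191 and higher in 5 of 6. The cluster makeup of the groups differed too, cluster 4 making up 80.9% of the bottom and 50.9% of the top group.

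Genotypes were then compared with mice as replicates. Of the neurons of a mouse, ganglionic cells made up 10.9, 13.2 and 12.3% in WT and 18.5, 23.5 and 22.2% in Fmr1-KO. Every Fmr1-KO mouse stood above every WT mouse. The difference of 9.25 percentage points reached an exact two-sided permutation p of 0.1, the smallest that 3 against 3 mice allow, and edgeR's quasi-likelihood test on the cell numbers gave a log2 fold change of 0.87 (SE 0.283, FDR 0.120), which did not pass 0.05. A share says nothing of absolute numbers: the excitatory neurons of the same mice made up 56.8, 75.3 and 49.5% in WT and 42.0, 48.6 and 35.6% in Fmr1-KO. As a share of all cells other than doublets, ganglionic cells were at 4.49, 2.09 and 1.79% in WT and 5.82, 8.01 and 3.44% in Fmr1-KO, with overlapping groups.

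All 3 clusters had higher means in Fmr1-KO. As a share of neurons, cluster 4 cells were at 6.16, 11.1 and 8.65% in WT and 11.6, 13.2 and 15.2% in Fmr1-KO. Cluster 8 cells were at 1.93, 0.685 and 2.01% in WT and 4.08, 4.67 and 3.08% in Fmr1-KO. Neither cluster overlapped between genotypes (exact permutation p = 0.1 each). Cluster 15 cells were at 2.85, 1.37 and 1.61% in WT and 2.82, 5.58 and 3.96% in Fmr1-KO, where WT 1 and Fmr1-KO 1 overlapped (exact permutation p = 0.200). The makeup of the ganglionic cells themselves overlapped between genotypes, cluster 4 accounting for 56.3, 84.4 and 70.5% in WT and 62.7, 56.3 and 68.3% in Fmr1-KO. With each barcode kept once per mouse, the share of all ganglionic cells among neurons was 9.74, 14.4 and 12.6% in WT and 18, 20.4 and 22.1% in Fmr1-KO. The groups were again without overlap, and the fit gave 0.84 (FDR 0.110). The shares by cluster count every barcode. In clusters 4, 8 and 15, 129 of 434, 16 of 116 and 71 of 132 cells shared theirs.

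Measured against interneurons alone, the genotypes overlapped. Of ganglionic cells and interneurons together, ganglionic cells were 28.1, 56.6 and 26.6% in WT and 34.1, 51.8 and 39.1% in Fmr1-KO, with means of 37.1 ± 16.9% in WT and 41.7 ± 9.09% in Fmr1-KO (exact two-sided permutation p = 0.600). WT 2 stood highest with 77 ganglionic cells and 59 interneurons (95% exact binomial interval 48.2 to 64.7%, counting error only), and its 3 libraries ranged from 53.8 to 60.4%. Leaving out WT 2 raised the difference from 4.56 to 14.3 percentage points, leaving out WT 1 lowered it to 0.0424, and it turned to -0.67 without WT 3 and -0.48 without Fmr1-KO 2.

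**Figure D3:**
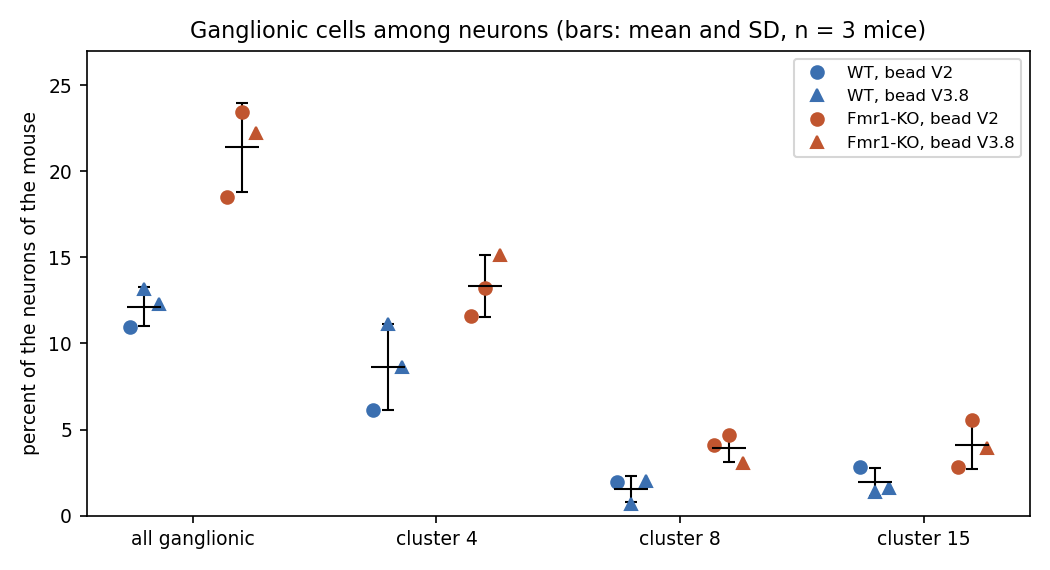
Ganglionic cells of each mouse as a percent of its neurons, in all and by deposited cluster, with points for mice (circles bead version 2, triangles version 3.8) and bars for the mean and SD of 3 mice. Fmr1-KO mice lie above WT mice for all ganglionic cells (21.4 ± 2.58% against 12.1 ± 1.13%) and for clusters 4 and 8, and overlap for cluster 15.

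Fmr1, the disrupted gene (chrX:68678541-68717963, mm10), was read with 27, 18 and 21 UMIs in WT and 13, 9 and 13 UMIs in Fmr1-KO in the ganglionic cells, or 60.5, 74.1 and 83.3 CPM in WT and 25.6, 12.7 and 31.7 CPM in Fmr1-KO. The groups did not overlap. Summed over all cells of the same mice, Fmr1 was at 68.4, 74.1 and 72.5 CPM in WT and 17.2, 19.9 and 16.1 CPM in Fmr1-KO. InDrop counts transcripts near their 3′ end, so it does not read the disrupted part of the gene, and the UMIs left in Fmr1-KO check nothing about it. Fmr1 had a UMI in fewer than 15% of ganglionic cells and was therefore read from the fit without a filter on low counts, over 13826 genes. There it stood at a log2 fold change of -1.50 (SE 0.362, unadjusted p = 3.27e-05, FDR 0.0645), which missed 0.05. With each barcode kept once it was -1.53 (FDR 0.135). Its paralog Fxr1, another RNA-binding protein, was at 152, 136 and 123.0 CPM in WT and 139.9, 116 and 115 CPM in Fmr1-KO, and Cyfip1, a binding partner, at 98.6, 86.4 and 91.2 CPM in WT and 82.7, 116 and 109.8 CPM in Fmr1-KO. Both overlapped between genotypes.

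Of 4009 genes detected in 15% or more of ganglionic cells, 2 passed an FDR of 0.01 with a level at least 15% above that of the other genotype, which is 0.0499% of those tested. Both were higher in Fmr1-KO. The first, Ccnd2 (chr6:127125162-127152193), was at 5024, 3510.2 and 2987 CPM in WT and 6696, 6748 and 4671 CPM in Fmr1-KO, with a log2 fold change of 0.47 (SE 0.0741, FDR 0.000428). Within bead version 2 the log2 ratio was 0.42 and within version 3.8 it was 0.52. Levels on version 3.8 were lower in both genotypes, so WT 1 and Fmr1-KO 3 overlapped although each Fmr1-KO mouse stood above the WT mice of its own bead version. In interneurons Ccnd2 was at 3002, 2215 and 1884 CPM in WT and 3981, 4311 and 1539 CPM in Fmr1-KO, with a log2 fold change of 0.07 (SE 0.143). In the joint fit the difference between the subtypes was 0.30 (SE 0.182, unadjusted p = 0.117, FDR 0.989) and did not pass. Leaving out WT 1, WT 3 or Fmr1-KO 3 gave log2 fold changes of 0.53, 0.42 and 0.42 (FDR 0.0278, 0.0224 and 0.224), and leaving out the term for bead version gave 0.65 (FDR 0.991). The fold was thus of like size or larger in these fits. With cells thinned to 700 UMIs it was smaller, at 0.32 (FDR 0.685).

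The second gene, Hist1h2ak (chr13:21753435-21753827), a replication-dependent histone H2A gene, differed by bead version as well as by genotype. It was read with 2, 92 and 58 UMIs in WT and 8, 12 and 393 UMIs in Fmr1-KO, or 4.48, 379 and 230.1 CPM in WT and 15.8, 16.9 and 959 CPM in Fmr1-KO, and the fit gave a log2 fold change of 1.67 (SE 0.216, FDR 1.4e-05). Over all cells of the same mice it was at 0.417, 30.5 and 30.6 CPM in WT and 1.39, 1.45 and 55.3 CPM in Fmr1-KO. All 3 mice on bead version 2 were under 20 CPM in ganglionic cells, with few UMIs each. The log2 ratio was 1.76 within bead version 2 and 1.65 within version 3.8. It was 1.38 without WT 3 (FDR 0.0224) and 1.81 without Fmr1-KO 3 (FDR 0.846), so both omissions ended the call and neither turned the direction. Replication-dependent histone genes are near-identical copies that lack ordinary poly(A) tails, which makes their counts uncertain. Summed over 61 such genes with a UMI, the level was 488, 704 and 619 CPM in WT and 628, 686 and 1561 CPM in Fmr1-KO, and Fmr1-KO 3 alone stood apart.

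At an FDR of 0.05 the immediate-early nuclear receptor gene Nr4a1 (chr15:101254269-101274795) was added. It was at 51.5, 362 and 274 CPM in WT and 229, 259.8 and 456 CPM in Fmr1-KO, with a log2 fold change of 1.12 (SE 0.224, FDR 0.0196). WT 1 was the low mouse and the groups overlapped. In interneurons, where it was not tested, Nr4a1 was at 105, 62.2 and 72.5 CPM in WT and 153, 184 and 93.5 CPM in Fmr1-KO. Each Fmr1-KO mouse there stood above the WT mice of its own bead version. Over all cells of the same mice Nr4a1 was at 598, 824 and 762 CPM in WT and 458, 520 and 769 CPM in Fmr1-KO. In ganglionic cells, leaving out the term for bead version gave 0.51 (FDR 0.991), and thinning cells to 700 UMIs gave 0.88 (FDR 0.997). Without WT 1 the log2 fold change was 0.53 (FDR 0.545), without WT 3 it was 1.14 (FDR 0.666), and DESeq2 gave 1.33 (FDR 1.000). The other 10 tested genes of the immediate-early and stress list had no unadjusted p under 0.05 and the list's median was 0.02. With each barcode kept once per mouse, 2 of 4482 genes passed, and Ccnd2, Hist1h2ak and Nr4a1 had log2 fold changes of 0.48, 1.69 and 1.17 (FDR 0.000221, 2e-05 and 0.0207).

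**Figure D4:**
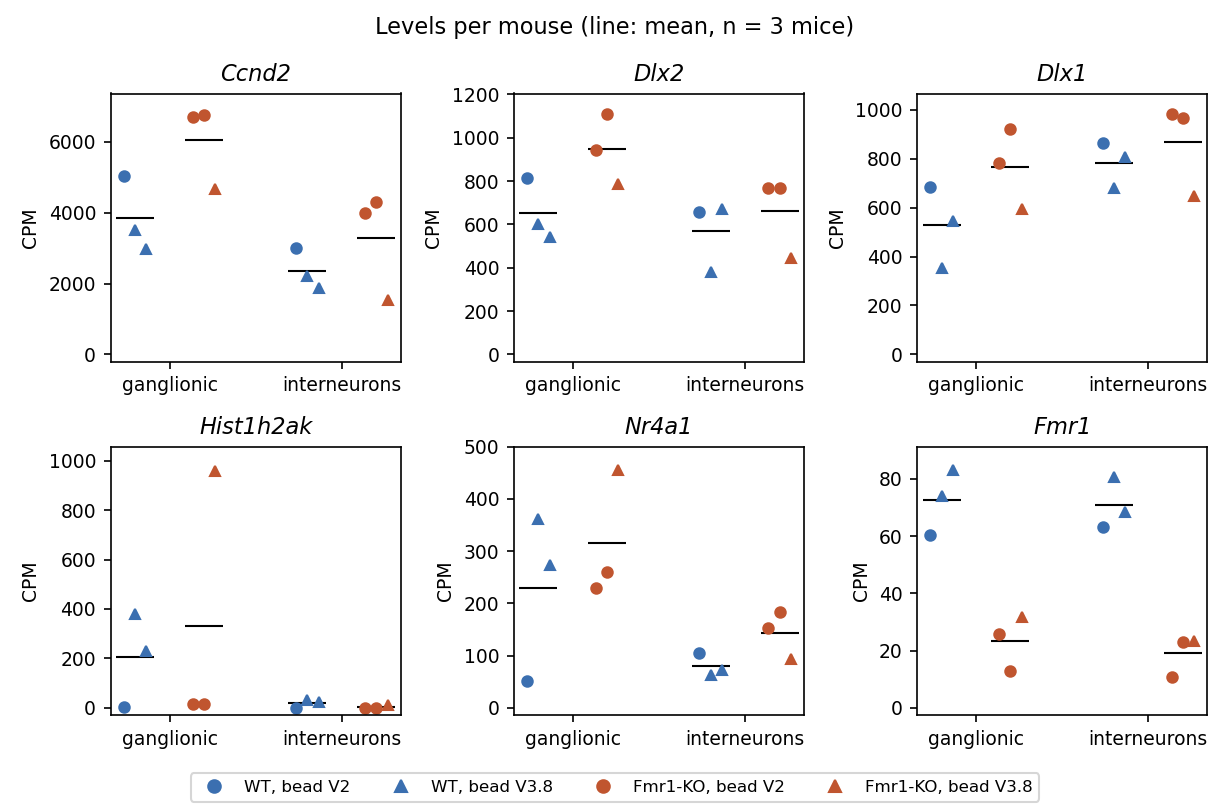
Levels in CPM of 6 genes in ganglionic cells and interneurons, 1 point per mouse (circles bead version 2, triangles version 3.8) with lines for the means of 3 mice. Ccnd2, Dlx2 and Dlx1 lie higher in Fmr1-KO within each bead version in ganglionic cells, Hist1h2ak separates by bead version, and Fmr1 lies lower in Fmr1-KO in both subtypes (60.5, 74.1 and 83.3 CPM in WT and 25.6, 12.7 and 31.7 CPM in Fmr1-KO in ganglionic cells).

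The lists below are described by counts at an unadjusted p under 0.05, which over all 4009 genes were 138 higher (3.44%) and 118 lower (2.94%) in Fmr1-KO, with a median log2 fold change of 0.00. In this fit no member of the lists described below passed the adjusted test at 0.01. Among the 18 tested GABAergic lineage factors, 5 were higher and 1 lower at that level, with a median of 0.09. With each barcode kept once, 3 of 19 were higher and 2 lower with a median of -0.00222, where all 4482 genes gave 154 and 125. Without the term for bead version 2 of 18 were higher and 3 lower, where all 4009 genes gave 60 and 56. Dlx2 was at 815, 601 and 544 CPM in WT and 944, 1110.0 and 785 CPM in Fmr1-KO (log2 fold change 0.39, unadjusted p = 0.00224, FDR 0.591). Dlx1 was at 683, 354 and 544 CPM in WT and 784, 919 and 595 CPM in Fmr1-KO (0.36, unadjusted p = 0.0136, FDR 0.767). Sp9 was at 249, 111 and 175 CPM in WT and 282, 323 and 205 CPM in Fmr1-KO (0.38, unadjusted p = 0.0461, FDR 0.767). Each had the same sign on both bead versions and overlapping groups. Within cluster 4 alone the log2 fold changes of Dlx2 and Dlx1 were 0.67 and 0.63 (FDR 0.0174 and 0.0855), where Dlx2 passed 0.05 and neither passed 0.01. In interneurons the 3 log2 fold changes were -0.01, 0.00 and -0.07, and the differences between subtypes had unadjusted p of 0.107, 0.0398 and 0.0459, none of which passed the adjustment. Sox4 and Insm1 were the other 2 that were higher at an unadjusted p under 0.05 (0.27 and 0.25). Olig1 was the 1 lower at that level (-0.54), with 320.3, 691 and 797 CPM in WT and 213, 177 and 568 CPM in Fmr1-KO.

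The genes of division did not share a direction. Of 35 tested S phase genes, 5 had positive values at an unadjusted p under 0.05 (Gmnn, Cdc45, Atad2, Rrm2 and Cdca7) and 0 negative, and the list's median was 0.09 (0.22 within bead version 2 and 0.01 within version 3.8). Gmnn, the geminin inhibitor of replication licensing, was at 65.0, 65.8 and 79.3 CPM in WT and 110.3, 86.1 and 129 CPM in Fmr1-KO (0.70, FDR 0.761) without overlap. Of 52 G2/M genes, Dlgap5 and Gas2l3 were higher at that level and Cenpf, Cdc20, Ect2 and Spc25 lower, with a median of -0.06, which was 0.01 without the term for bead version. The centromere protein gene Cenpf was at 1062, 823 and 746 CPM in WT and 936, 894 and 585 CPM in Fmr1-KO (-0.31, FDR 0.762). Within cluster 4 alone, the S phase median was 0.23 and the G2/M median -0.22. There 8 of 52 G2/M genes were lower and 0 higher at an unadjusted p under 0.05. Over the 4413 genes tested in cluster 4, 126 were higher and 125 lower at that level, with a median of 0.00. The activator of the anaphase-promoting complex, Cdc20, was called there at -1.05 (FDR 0.00502).

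Summed over both lists, the level of division genes was 30416, 25810.1 and 24061 CPM in WT and 28987, 30133 and 25487 CPM in Fmr1-KO. The groups overlapped, and the log2 ratio of the means was 0.08 against an SD of 0.15 between mice. Bead version 2 mice stood higher than version 3.8 mice. The share of ganglionic cells called G2/M also overlapped, at 63.0, 63.6 and 55.7% in WT and 60.2, 70.4 and 66.3% in Fmr1-KO (exact permutation p = 0.400).

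Other lists showed smaller or mixed differences. Of 26 tested neuroblast genes, 5 were higher (Stmn1, Sox4, Igfbpl1, Elavl4 and Epha4) and 0 lower at an unadjusted p under 0.05, with a median of 0.12 (0.04 within bead version 2 and 0.20 within version 3.8). Without the term for bead version, 0 of the 26 reached that level in either direction. Stmn1 was at 3913, 2942 and 2983 CPM in WT and 4308, 4505 and 3337 CPM in Fmr1-KO (0.17, FDR 0.767). In the Notch list, 1 of 10 tested genes was lower, Hes5 at 332, 206 and 377 CPM in WT and 294, 164 and 212 CPM in Fmr1-KO (-0.52, FDR 0.767), and the median was -0.19. That median turned to 0.05 over 12 genes with each barcode kept once and 0.08 over 13 genes in cluster 4 alone, so the list had no settled direction. The progenitor chromatin genes Bmi1, a Polycomb subunit, and Tet1, a methylcytosine dioxygenase, had values of -0.46 and -0.66 among 25 tested. Of 11 radial glial and astrocyte genes only Fabp7 reached that level (0.27), and of 18 synaptic genes none did.

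Respiratory chain genes had positive values in 76.1% of 71 tested, against 50.1% of all genes. That share was close to those of the neuroblast (76.9%) and S phase (74.3%) lists and above that of ribosomal proteins (47.5%). Of the 71, 54 were above 0 and 17 below, 10 and 1 at an unadjusted p under 0.05. Their median was 0.16 against 0.00 over all genes. Without the term for bead version their median was 0.13. In that fit 3 of the 71 were higher and 0 lower at an unadjusted p under 0.05, where all 4009 genes gave 60 and 56. The complex I subunit Ndufa13 was at 69.4, 45.3 and 63.5 CPM in WT and 72.9, 93.2 and 163 CPM in Fmr1-KO. Another, Ndufv1, was at 44.8, 53.5 and 35.7 CPM in WT and 96.5, 57.9 and 82.9 CPM in Fmr1-KO. Both were without overlap. The bead versions differed, however, the list's median being 0.01 on version 2 and 0.30 on version 3.8, where Fmr1-KO 3 was the one mutant. The ribosomal protein genes had a median of -0.00175 over 80 tested, with 1 higher (Rps27) and 4 lower (Rpl5, Rpl6, Rpl10a and Rps27a). Without overlap between genotypes, 0 of the 80 lay higher and 5 lower, and 7 of the 71 respiratory genes lay higher and 1 lower. Over all 4009 genes, 145 (3.62%) lay higher without overlap and 174 (4.34%) lower. Interneurons gave a median of 0.01 for respiratory and 0.08 for ribosomal genes.

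**Figure D5:**
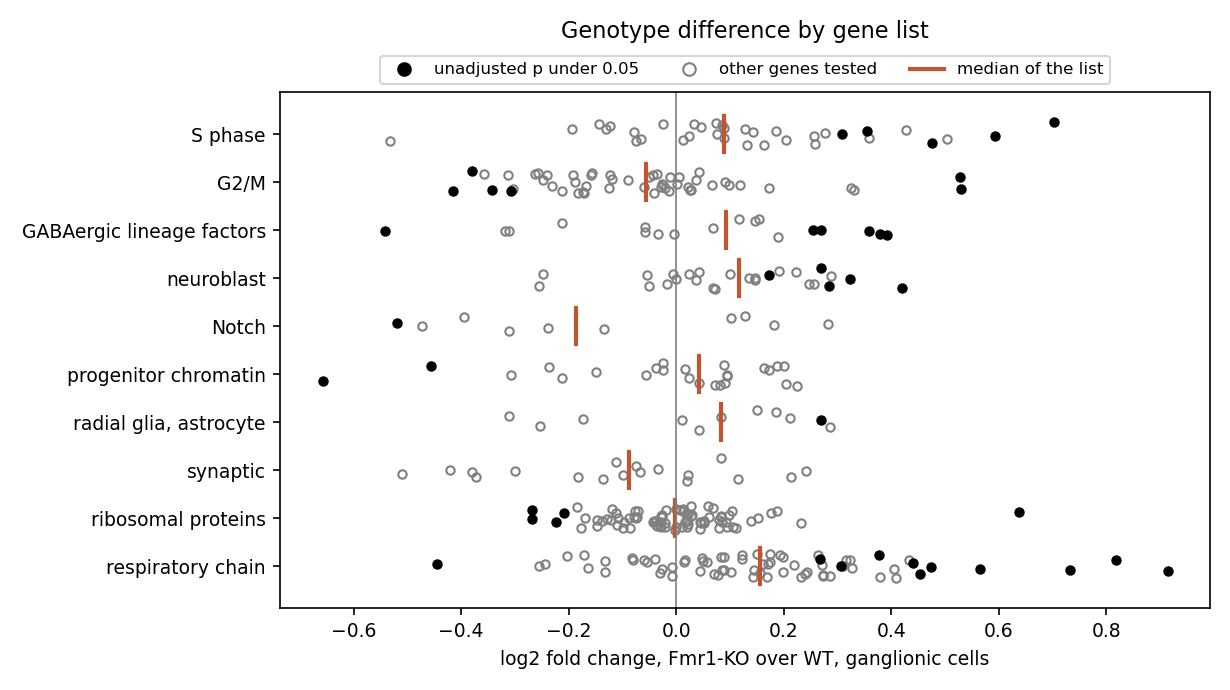
Fitted log2 fold change of Fmr1-KO over WT in ganglionic cells for every tested gene of 10 lists, with filled points at an unadjusted p under 0.05 and an upright line at each list's median. The S phase, neuroblast and respiratory medians lie to the right of 0 (0.09, 0.12 and 0.16) and the Notch and G2/M medians to the left (-0.19 and -0.06), each within the spread of its genes. The Notch median turned positive with each barcode kept once and in cluster 4 alone, and the G2/M median without the term for bead version.

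Across all tested genes, 145 (3.62%) lay higher in all 3 Fmr1-KO mice than in all 3 WT mice and 174 (4.34%) lower. For a single gene such separation amounts to an exact two-sided permutation p of 0.1, so it passes no test on its own. None of the following passed the adjusted test, and they are the 10 in each direction with the smallest unadjusted p among those with no overlap and the same sign on both bead versions. Higher were Atp6v0b, a subunit of the vesicular proton pump (42.6, 65.8 and 35.7 CPM in WT and 90.6, 73.4 and 112 CPM in Fmr1-KO, log2 fold change 1.04), Upf3b, a nonsense-mediated decay factor (73.9, 103 and 75.4 CPM in WT and 122, 129 and 149 CPM in Fmr1-KO, 0.75), and Loxl2, a lysyl oxidase (276, 305 and 194 CPM in WT and 372, 554 and 319.5 CPM in Fmr1-KO, 0.58). Ndufa13, Gmnn, Ssh2, a cofilin phosphatase, Lrrc8a, a volume-regulated anion channel subunit, Ttc9b, Zfp9 and Zfp280d completed the higher set. Lower were Kpna2, an importin used in the cell cycle (762, 786 and 575 CPM in WT and 520.0, 562 and 498 CPM in Fmr1-KO, -0.47), Npas3, a neurogenic transcription factor (188, 111 and 155 CPM in WT and 108, 103 and 92.7 CPM in Fmr1-KO, -0.71), and Cct4, a chaperonin subunit (267, 329 and 349 CPM in WT and 193, 213 and 217 CPM in Fmr1-KO, -0.50). Stx6, a syntaxin of endosomal transport, Zfp148, Hadha, a fatty acid oxidation enzyme, Nbl1, a BMP antagonist, Maf1, a repressor of RNA polymerase III, AI837181 and the peptidase gene Dpp8 completed the lower set. The FDR of these 20 lay between 0.483 and 0.762. All 20 kept their direction and an unadjusted p under 0.05 with each barcode kept once per mouse, a repeat on 557 of the same 682 cells. In the fit on cluster 4 alone, Loxl2, Zfp280d and Ttc9b had unadjusted p of 0.0781, 0.0575 and 0.0691, and Zfp9 was not tested. DESeq2 gave Zfp9, Lrrc8a and AI837181 unadjusted p of 0.0577, 0.0548 and 0.0631. Of the higher genes, Atp6v0b, Upf3b and Loxl2 had log2 fold changes of -0.02, -0.26 and 0.50 in interneurons.

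Whether the genotype difference itself differed between ganglionic cells and interneurons was tested for 2772 genes that 15% or more of the cells of both subtypes carried. No gene passed an FDR of 0.05 (0%) by edgeR or by DESeq2, with 109 and 21 genes at an unadjusted p under 0.05. The smallest p belonged to Dusp8, a MAP kinase phosphatase, at 58.2, 37.0 and 63.5 CPM in WT and 114, 87.6 and 75.6 CPM in Fmr1-KO in ganglionic cells and 408, 373 and 425 CPM in WT and 284, 291 and 317 CPM in Fmr1-KO in interneurons, a difference of 1.23 (SE 0.292, FDR 0.989). Isoc1, Csk and Ptn were also among the 5 smallest, with differences of -1.02, 1.06 and -0.95. Leaving out WT 1 gave 7 calls, among them Ptn, a secreted growth factor, and the cytoskeletal genes Map1b and Kif5c, and no other omission gave any.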

How the data were processed

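Cortices of 3 WT and 3 Fmr1-KO mice were profiled by InDrop in 17 libraries. The authors' deposited UMI counts per gene and cell came from reads aligned to mm10 with TopHat 2.0.14, assigned with ESAT and merged by UMI, with a stated minimum of 700 UMIs per cell (the lowest ganglionic cell in the table holds 691) and with haemoglobin genes, erythrocytes and some doublets removed before deposit. Cells marked as doublets were further left out here. Subtypes, clusters and phase calls are the authors' own; how phases were called is not given in the sources used here. The members and gene lists were chosen with earlier results of these data known.

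UMI counts were summed per mouse over the ganglionic cells, giving depths of 243006 to 708105 UMIs, and tested with edgeR 4.0.16 (R 4.3.3; quasi-likelihood, TMM, bead version as a covariate; Benjamini-Hochberg FDR under 0.01 and a fold 15% above 1), over genes that 15% or more of ganglionic cells carried. The genotype by subtype term used the mouse as a block. Fmr1 fell under the 15% filter and was taken from the fit without one, a departure from the plan. Nothing in the labels ties the mice to litters. In the genotype fit, p-values rest on the spread between mice left after the bead version term, with information shared over genes. They cover these 6 mice only. Shares of cells were compared with exact two-sided permutation tests (scipy 1.17.1), and intervals cover counting error only. Thinning drew 700 UMIs per cell. DESeq2 1.42.0, other filters, scalings, each barcode once, cluster 4 alone and the omission of each mouse were alternatives, the barcode and cluster ones chosen after seeing the data. On simulated counts with 200 of 4009 genes changed by 1 on the log2 scale, 71.5% were called, with 0 false calls. These counts were drawn with the dispersions that edgeR fitted and with no difference between bead versions. They therefore say nothing of false calls where levels differ by bead version. Text names Fmr1, list members with the highest levels or a test passed, and genes of smallest p or largest ratio; further list members that separate clusters or lineages were picked after their values were seen. Some genes that this rule names are not reported here. Promoters are RefSeq windows on GRCm38.p6, and gene positions are the GENCODE annotation on mm10.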

Additional observations from a re-analysis of the deposited data

How the results depend on the processing

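The count of changed genes is 2 in the fit reported and small under every alternative. It was 0 without the bead version term, 0 with the replicate number as a block in its place, 0 with cells thinned to 700 UMIs, 4 without a filter on low counts and 4 in cluster 4 alone. Leaving out 1 mouse gave 0 (without WT 3) to 3 genes. Scaling by library size alone, DESeq2, filterByExpr and each barcode kept once gave 2 each, and an FDR of 0.05 gave 3. Ccnd2 kept its direction throughout (0.42 to 0.53 when a mouse was left out) but missed 0.01 without the bead version term, with the block, when thinned, and without WT 1, WT 3 or Fmr1-KO 3. Hist1h2ak turned to -0.29 under the replicate block. Fmr1 was at -1.64 without the bead version term (FDR 0.0393) and -1.64 under the replicate block (FDR 0.0162), where it passed 0.05; it was -1.70 to -1.24 when a mouse was left out and -0.13 after thinning, when few UMIs were left.

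The share of ganglionic cells among neurons passed 0.05 at 0.82 without the bead version term (FDR 0.0455), 0.81 under the replicate block (FDR 0.00817) and 1.06 against excitatory neurons alone, a fit on 2 complementary rows whose FDR is too small to rely on; over all cells it was 0.73 (FDR 0.499), and 0.78 to 0.94 when a mouse was left out. The ganglionic share against interneurons ranged from -0.67 to 14.3 percentage points over the omissions, turning sign without WT 3 or Fmr1-KO 2. The genotype by subtype test gave 0 to 7 genes over the omissions and 0 under the other alternatives. The log2 ratio of division genes stayed between 0.00 and 0.18 over the omissions. Replicate numbers do not pair the mice: deviations from the genotype means correlated at 0.37, -0.29 and 0.36 for numbers 1, 2 and 3, and number 2 joins mice of different bead versions. Each mouse gave 61 to 206 ganglionic cells, and how well changes smaller than 1 on the log2 scale could be found was not simulated.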
